A study of Mus musculus with 8 samples.

Results

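Oxidative phosphorylation is carried out by 5 protein complexes of the inner mitochondrial membrane, and the genes described here are those in the nucleus that encode their subunits. Genes were taken by symbol: the Nduf genes of complex I, Sdha to Sdhd of complex II, the Uqcr genes of complex III, the Cox4 to Cox8 genes of complex IV and the Atp5 genes of complex V. The tables list 84 such genes among 24318 symbols: 37 of complex I, 4 of complex II, 8 of complex III, 18 of complex IV and 17 of complex V. The pattern also takes in a few genes whose products are not, or not only, fixed subunits, such as Ndufa4, which is now assigned to complex IV, Cox7a2l, a supercomplex factor, and Atp5s and Atp5sl, which are kept here under the complex of their symbol.

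Poly(A) RNA was sequenced from mouse E14 embryonic stem cells (ESC), which were kept with LIF and inhibitors of MEK and GSK3, and from cells labelled as neural progenitor cells (NPC) that were derived from them. Both kinds of cell were either wild type or knockout for Wdr68, a WD40-repeat protein whose gene the tables list as Dcaf7. Each of the 4 groups (ESC and NPC of either genotype) has 2 libraries. NPC of both genotypes came from hanging drops of 500 cells kept for 2 days, then floated free for 2 days and received retinoic acid for the last 4, and no group received that time in culture without retinoic acid. The cells were grown on feeder fibroblasts before they were moved to gelatin. The number of knockout clones is not given in the sources used here, and the duplicates are not said to be separate cultures. The p-values therefore reflect how far these libraries vary, a spread that could be technical.

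Complexes I, III and IV pass electrons from NADH to oxygen and pump protons as they do so, complex II feeds in electrons from succinate, and complex V uses the proton gradient to make ATP. A few core subunits of complexes I, III, IV and V are encoded by mitochondrial DNA. The other subunits are encoded in the nucleus, and several of them exist as forms made by different genes in different tissues. Mouse ESC are known to rely on both glycolysis and respiration, while neurons depend strongly on respiration.

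Levels are FPKM (fragments per kilobase of transcript, relative to the mapped fragments), which allow only a rough comparison between genes of different length. Differences are on the log2(FPKM + 1) scale, with a standard error (SE), and come from limma fitted to all 8 libraries over the 13318 genes that reached 1 FPKM in 2 or more libraries. A gene is said to rise or fall where its Benjamini-Hochberg adjusted p from limma was under 0.05. The libraries held 5996677 to 7942644 implied fragments. Dcaf7 was at 12.4 and 14.2 FPKM in wild-type ESC, at 2.80 and 2.26 in knockout ESC, at 27.2 and 29.6 in wild-type NPC and at 8.36 and 8.99 in knockout NPC, so its RNA was lower in the knockout but still present. The 7 pluripotency markers summed to 2257 to 2335 FPKM over the 4 ESC libraries and to 10.6 to 40.4 over the 4 NPC libraries. The 7 neural progenitor markers summed to 201 and 207 FPKM in wild-type NPC but to 32.3 and 33.5 in knockout NPC. Sox1 and Hes5 were below 1 there. Most of the knockout NPC sum was Nes, at 25.4 and 22.4 FPKM against 29.8 and 30.2 in wild-type NPC and 2.76 and 2.86 in knockout ESC. Pax6, Fabp7 and Zic1 were also higher in knockout NPC than in knockout ESC, but far below wild-type NPC. The 5 neuron markers summed to 272 and 294 FPKM in wild-type NPC and to 8.43 and 13.6 in knockout NPC. Markers of endothelium and blood summed to 90.2 and 119 FPKM in wild-type NPC and to 856 and 1052 in knockout NPC. The cells labelled knockout NPC thus go against the neural progenitor label by these markers other than Nes, and are called knockout NPC only as a label. In such bulk samples, fewer cells of a type and less RNA per cell cannot be told apart.

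Most of the genes were among the most abundant by their mean over all 8 libraries. Of the 84 genes, 78 were tested, and their median mean level was at the 95.2th percentile of all tested genes, with 68 of them above the 90th. By the median level over the tested genes of a complex, complex V was highest at 258 FPKM, followed by 217 for complex IV, 162 for complex III, 84.4 for complex I and 68.4 for complex II. The 3 most abundant genes were Cox4i1, which encodes a regulatory subunit of complex IV, at a mean of 572 FPKM over all 8 libraries, Atp5b, the catalytic beta subunit of complex V, at 566, and Ndufa4 at 528. The catalytic alpha subunit gene Atp5a1 had a mean of 316 FPKM. It rested on 5130 to 8780 implied fragments per library and Cox4i1 on 1137 to 1456. The order by FPKM therefore depends on the transcript lengths used.

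**Figure D1:**
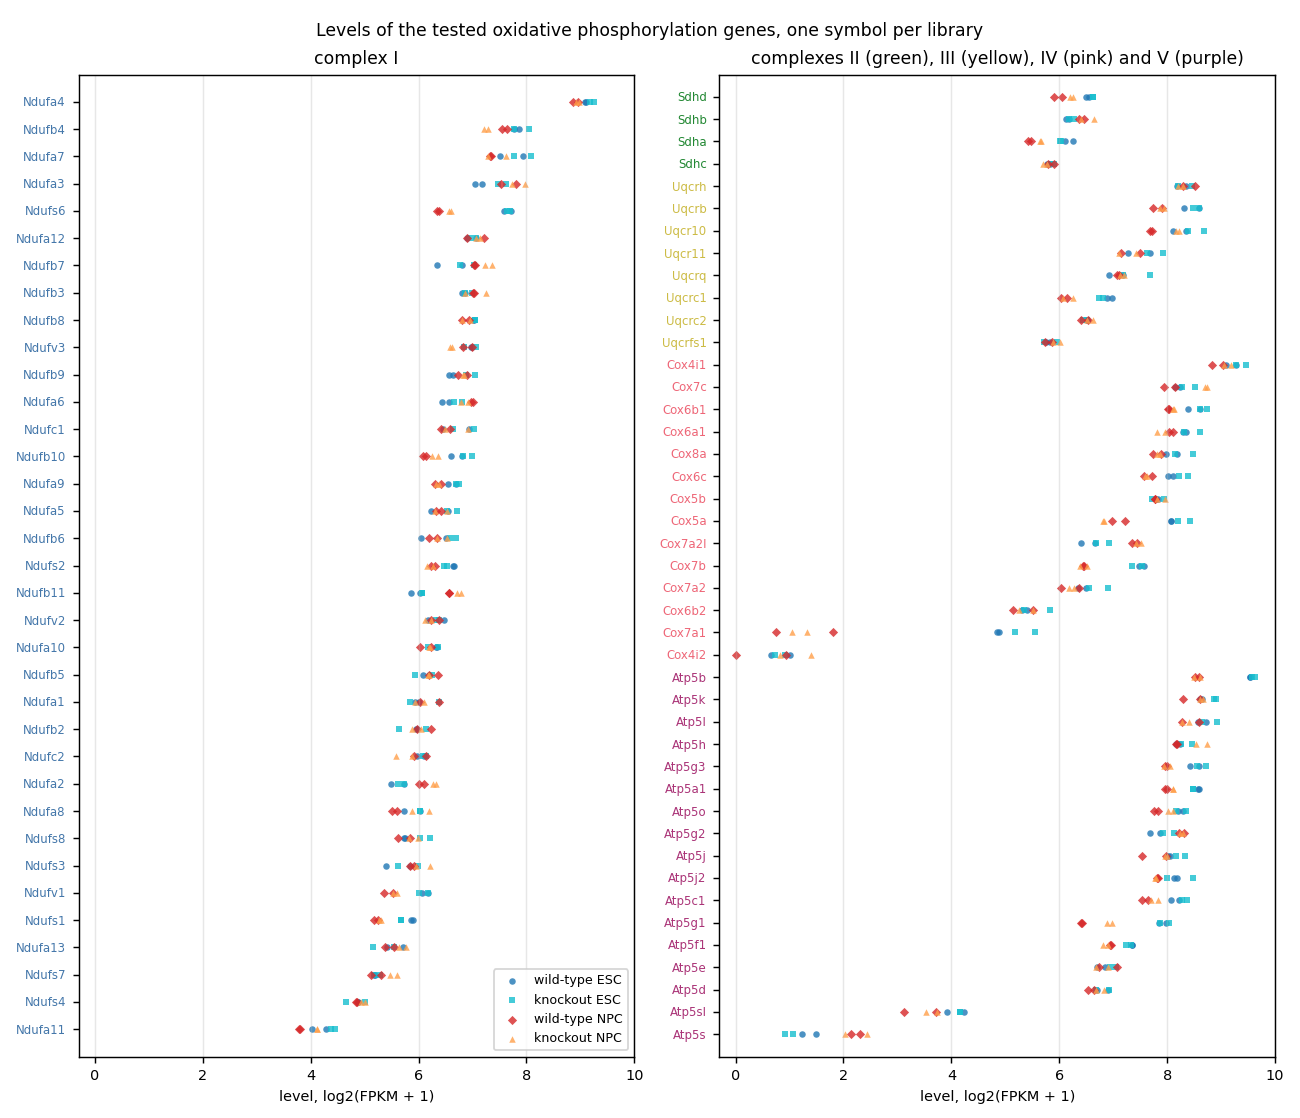
Level of each of the 78 tested genes on the log2(FPKM + 1) axis, with one symbol per library and the 4 groups by shape and colour, complex I on the left and complexes II to V on the right. The 8 libraries of most genes lie close together. Cox4i2, Atp5s and Cox7a1 lie lower than most, and Cox7a1 has its ESC libraries far to the right of its NPC libraries.

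The 6 genes that were not tested were Ndufa4l2, Ndufs5, Cox6a2, Cox7b2, Cox8b and Cox8c. Cox8b, a complex IV form of heart and skeletal muscle, was listed at 0 in all 8 libraries. Cox6a2, the striated muscle form of Cox6a1, was listed at 0 in 7 libraries and at 0.354 FPKM in knockout NPC replicate 2. Cox7b2 and Cox8c, forms known from testis, reached at most 0.771 and 0.640 FPKM, both in knockout ESC replicate 2, and were listed at 0 in most others. Ndufa4l2, the hypoxia-linked form of Ndufa4, ranged from 0 to 0.530 FPKM. Ndufs5, an accessory subunit of complex I, was listed at 0.00199 FPKM or less in every library, while BC002163, whose locus overlaps it and whose sequence is a near-copy, was listed at 80.4 to 131 FPKM. How the authors' counting split the reads of these entries cannot be told from the tables, so no level is given for Ndufs5.

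The first question was how these genes changed as ESC became NPC. In wild-type cells 9 of the 78 genes rose and 27 fell, against 41.6% and 31.1% of all 13318 genes, which is 72.6% in either direction. In knockout cells 8 rose and 35 fell, against 41.6% and 28.8% of all genes, 70.3% in either direction. The median change of the tested genes was -0.19 in wild-type and -0.23 in knockout cells, beside 0.15 and 0.17 over all genes. By the FPKM as deposited, more of the oxidative phosphorylation genes thus fell than rose. Most changes were small, and Cox7a1, Atp5g1, Ndufs6 and Cox7b had the largest in wild-type cells. The 2 contrasts share no libraries. Of the genes that fell, 25 did so in both genotypes, 92.6% of those that fell in wild-type cells and 71.4% of those that fell in knockout cells. The 5 that rose in both were Atp5s, Cox7a2l, Ndufa2, Ndufb11 and Sdhb, 55.6% and 62.5% of the genes that rose, and no gene moved in opposite directions. The same overlap was not counted over all genes, so it cannot be called particular to these 78. The stages did not overlap for 55 genes in wild-type cells, 14 of them higher in NPC (48.7% of all genes) and 41 lower (37.5% of all genes). In knockout cells they did not overlap for 60, 14 higher (50.1% of all genes) and 46 lower (35.5% of all genes).

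**Figure D2:**
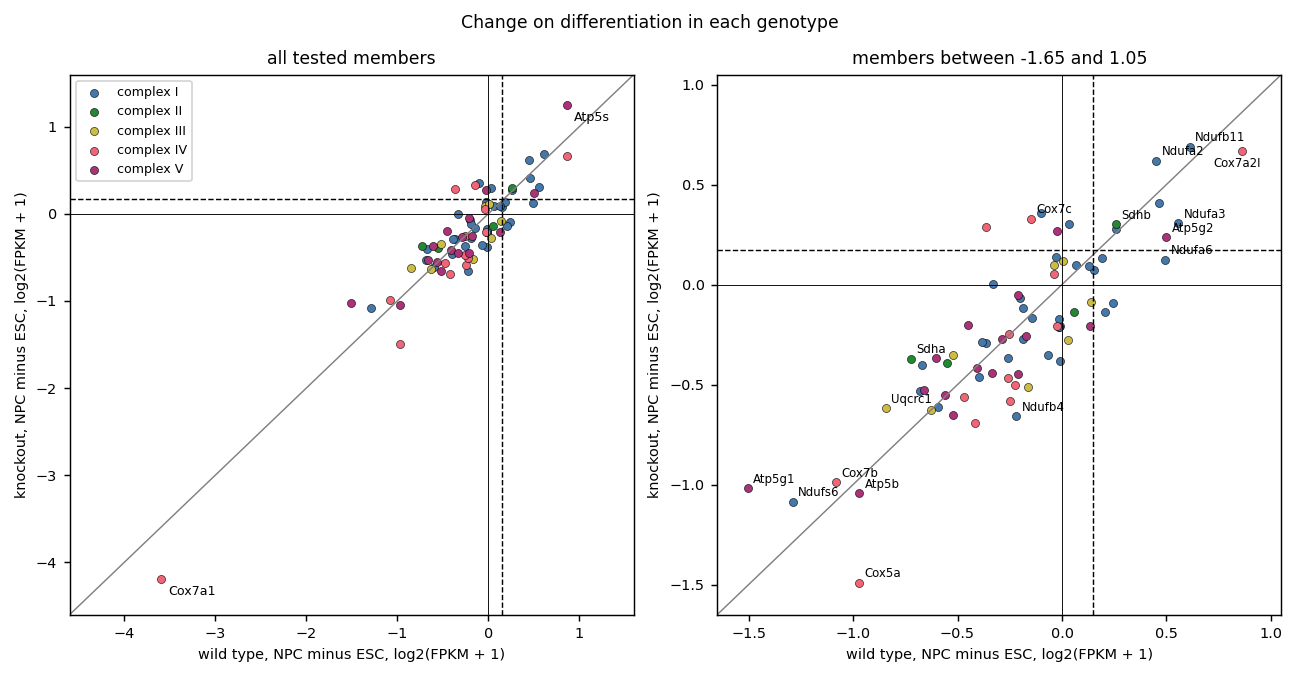
Change from ESC to NPC of the 78 tested genes on the log2(FPKM + 1) scale, in wild-type cells on the horizontal axis and in knockout cells on the vertical axis, coloured by complex, with the medians over all genes as dashed lines and equality as a grey diagonal; the right panel enlarges the centre. Most genes lie below and to the left of the dashed lines on the FPKM as deposited, and Cox7a1 lies far apart at -3.59 and -4.19.

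The balance of falls and rises depended on how the libraries were scaled to each other. Among the wild-type libraries, 7 genes rose and 39 fell with median-ratio scaling. When FPKM were scaled to their sum without small RNA genes, 17 rose and 23 fell, and 27 rose and 17 fell after quantile normalization. Among the knockout libraries these counts were 4 and 49, 21 and 17, and 23 and 17. Of all 13318 genes in wild-type cells, 5034 rose and 4669 fell with median-ratio scaling. With scaling to the sum 6329 rose and 3387 fell, and after quantile normalization 4578 rose and 4735 fell. In knockout cells these counts over all genes were 4766 and 4536, 6679 and 2888, and 4490 and 4396. The median over all genes moved too, to 0.31 in wild-type and 0.38 in knockout cells under scaling to the sum. Relative to the median of all genes, the wild-type median of the oxidative phosphorylation genes was at -0.33 as deposited, -0.36 with median-ratio scaling and -0.31 with scaling to the sum, but at 0.17 after quantile normalization. In knockout cells these differences were -0.41, -0.44, -0.36 and 0.06. The direction of the whole set is therefore not fixed by these data. What held under each of the 4 scalings was the direction of single genes: in wild-type cells 6 rose and 15 fell under all 4, against 30.4% and 24.6% of all genes, and in knockout cells 4 rose and 13 fell, against 29.8% and 21% of all genes.

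**Figure D3:**
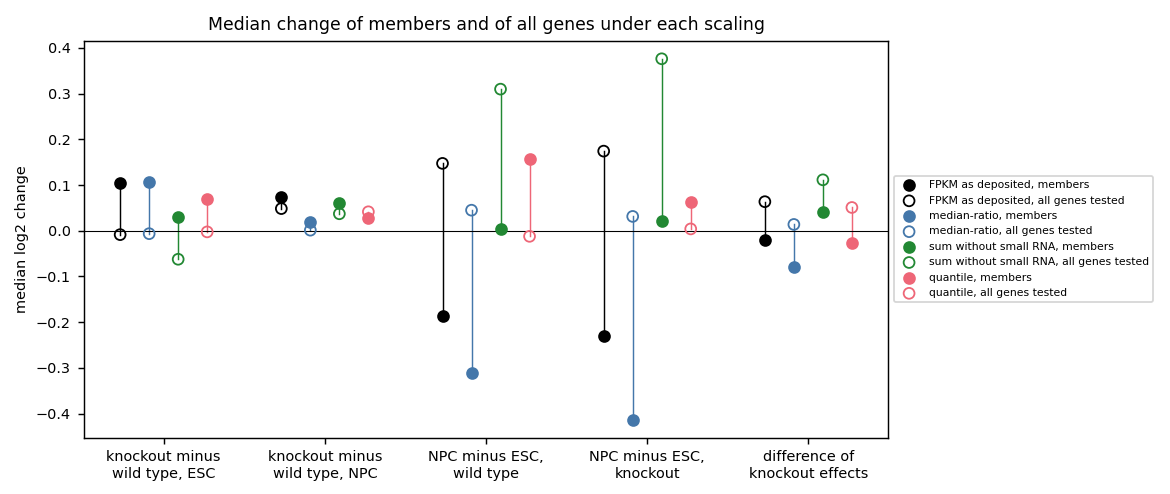
Median log2 change of the 78 tested genes (filled) and of all 13318 genes (open) in each of the 5 comparisons, in one colour per scaling. For NPC against ESC the filled symbols lie below the open ones with 3 scalings and above them after quantile normalization.

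By complex, the FPKM as deposited gave 5 rises and 9 falls among the 35 tested genes of complex I in wild-type cells, with a median of -0.02, and 3 rises and 12 falls in knockout cells, with a median of -0.14. Of the 14 tested genes of complex IV, 1 rose and 5 fell in wild-type cells, with a median of -0.26, and 2 rose and 8 fell in knockout cells, with a median of -0.49. Of the 17 genes of complex V, 2 rose and 8 fell in wild-type cells, with a median of -0.34, and 2 rose and 9 fell in knockout cells, with a median of -0.37. The complex I median was above those of complexes IV and V under each of the 4 scalings in both genotypes, although the signs varied. Median-ratio scaling and scaling to the sum apply 1 factor per library and so shift such abundant genes almost alike. Of the 3 other scalings, only quantile normalization could have changed this order much. After quantile normalization the medians in wild-type cells were 0.23 for complex I, 0.08 for complex IV and 0.04 for complex V, and in knockout cells 0.18, -0.18 and 0.01. In complex I more genes then rose than fell, 16 against 5 in wild-type and 11 against 6 in knockout cells. Over all 13318 genes that scaling gave 4578 rises and 4735 falls in wild-type and 4490 and 4396 in knockout cells. In complex III none of the 8 genes rose as deposited, while 3 fell in wild-type and 4 in knockout cells, but after quantile normalization 4 and 3 of them rose. In complex II, Sdha and Sdhd fell and Sdhb rose in both genotypes as deposited. These counts are descriptions, and differences between complexes were not tested.

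As shares of the summed FPKM without small RNA genes, complex V took 0.998% and 1.03% in wild-type ESC and 0.852% and 0.905% in wild-type NPC. Complex I took 0.779% and 0.819% in wild-type ESC and 0.872% and 0.854% in wild-type NPC. The libraries of the 2 stages thus did not overlap for either complex, and they differed in opposite directions. The same order was seen in knockout cells, where complex V took 1.01% and 1.06% in ESC and 0.958% and 0.927% in NPC, and complex I took 0.809% and 0.839% in ESC and 0.889% and 0.880% in NPC. Complex IV took 0.650% and 0.688% in wild-type ESC and 0.600% and 0.631% in wild-type NPC. All 84 genes together took 2.70% to 3.09% of the summed FPKM in the 8 libraries.

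Both catalytic subunit genes of complex V fell in both genotypes. Atp5b was at 739 and 737 FPKM in wild-type ESC and at 366 and 386 in wild-type NPC, and at 759.8 and 789.5 in knockout ESC and 391 and 359.9 in knockout NPC. All 4 NPC libraries lay at about the same level, well below all 4 ESC libraries. The change was -0.97 (SE 0.07, adjusted p = 1.4e-05, limma) in wild-type and -1.04 (SE 0.07, adjusted p = 1.1e-05, limma) in knockout cells. Its partner Atp5a1 was at 381 and 382 FPKM in wild-type ESC and at 247 and 255 in wild-type NPC, a change of -0.60 (SE 0.05, adjusted p = 4.6e-05, limma). In knockout cells, Atp5a1 went from 354 and 357 FPKM to 274 and 276, a change of -0.37 (adjusted p = 0.00066, limma), which was 0.02 after quantile normalization and was not called with scaling to the sum. The gamma subunit gene Atp5c1, whose product forms the rotating shaft, changed by -0.56 in wild-type and -0.55 in knockout cells, and was called under all 4 scalings in both. Atp5c1 has a near-copy in the genome.

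Ndufv1 and Ndufs1 encode core subunits of the part of complex I that takes electrons from NADH. Ndufv1 was at 66.0 and 71.1 FPKM in wild-type ESC, 40.0 and 44.9 in wild-type NPC, 63.7 and 71.3 in knockout ESC, and 47.5 and 45.0 in knockout NPC. Ndufs1 was at 57.3 and 58.7 FPKM in wild-type ESC, 35.0 and 37.1 in wild-type NPC, 50.4 in both knockout ESC libraries, and 38.4 and 37.4 in knockout NPC. The ESC libraries were above the NPC libraries for both genes in both genotypes. The changes were -0.68 and -0.53 for Ndufv1 and -0.67 and -0.40 for Ndufs1, in wild-type and knockout cells, with adjusted p of at most 0.0012 by limma. With scaling to the sum without small RNA genes, the fall of Ndufs1 in knockout cells was not called (adjusted p = 0.07, limma). The Ndufs1 locus overlaps that of Ino80dos, and whether the authors' counting used strand is not given in the sources used here. The largest fall in complex I was that of Ndufs6 (mm9 chr13:73457324-73465930), an accessory subunit that binds zinc. It was at 210.2 and 190.4 FPKM in wild-type ESC, 82.6 and 80.0 in wild-type NPC, 198 and 206 in knockout ESC, and 96.4 and 93.3 in knockout NPC. Its NPC libraries lay below every ESC library by a wide margin, with changes of -1.29 (SE 0.07, adjusted p = 3.6e-06, limma) and -1.08 (SE 0.07, adjusted p = 8.7e-06, limma). A near-copy of its transcript, Ndufs6b, is annotated in the mouse genome, so its reads could have been split. Not all core subunits of complex I fell. Ndufv2, a partner of Ndufv1 that was chosen after its values were seen, was at 87.8 and 71.3 FPKM in wild-type ESC and at 82.7 and 74.3 in wild-type NPC, so the groups overlapped. It was not called in either genotype. The core subunit genes Ndufs3, Ndufs7 and Ndufs8, of which Ndufs3 and Ndufs8 were also chosen after their values were seen, changed by 0.26, 0.03 and -0.02 in wild-type cells and were not called there. In knockout cells Ndufs7 rose by 0.30, a call lost with median-ratio scaling and without knockout ESC replicate 2 or knockout NPC replicate 1 (adjusted p up to 0.246, limma).

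In complex II, Sdha carries the flavin at which succinate is oxidised and Sdhb carries the iron-sulphur clusters. Sdha was at 67.7 and 75.5 FPKM in wild-type ESC and 43.8 and 42.1 in wild-type NPC, and at 64.8 and 63.3 in knockout ESC and 48.7 and 49.9 in knockout NPC. Sdhb was at 68.8 and 71.4 FPKM in wild-type ESC and 86.8 and 81.5 in wild-type NPC, and at 71.1 and 76.5 in knockout ESC and 83.8 and 99.2 in knockout NPC. These partners, which act in the same complex at similar levels in ESC, differed in direction: Sdha changed by -0.72 in wild-type and -0.37 in knockout cells, and Sdhb by 0.26 and 0.30. The rise of Sdhb was not called with median-ratio scaling (adjusted p = 0.22 in wild-type and 0.27 in knockout cells, limma). It was also not called in wild-type cells when any 1 of the 4 wild-type libraries was left out (adjusted p up to 0.15), nor in knockout cells without knockout ESC replicate 1 or knockout NPC replicate 2 (up to 0.11). The fall of Sdha in knockout cells was not called with scaling to the sum (adjusted p = 0.2, limma), nor was that of Sdhd, which was also lost after quantile normalization (adjusted p up to 0.172).

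In complex III, the core protein gene Uqcrc1 was at 125 and 117 FPKM in wild-type ESC and 64.3 and 69.7 in wild-type NPC, and at 106 and 111 in knockout ESC and 75.3 and 65.9 in knockout NPC. The changes were -0.84 (SE 0.08, adjusted p = 8.1e-05, limma) and -0.62 (SE 0.08, adjusted p = 0.00045, limma). Its partner core protein gene Uqcrc2, chosen after its values were seen, was at 90.5 and 89.9 FPKM in wild-type ESC and at 91.7 and 84.1 in wild-type NPC, so the groups overlapped. Uqcrfs1, the Rieske iron-sulphur protein, changed by 0.01 in wild-type and 0.12 in knockout cells and was not called in either as deposited, but it was called higher after quantile normalization (adjusted p = 0.033 and 0.013, limma).

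In complex IV, Cox5a encodes a subunit on the matrix side and Cox7b a small subunit in the membrane that is needed for assembly. Cox5a was at 269 and 268 FPKM in wild-type ESC, 126 and 148 in wild-type NPC, 292 and 344 in knockout ESC, and 111 and 113 in knockout NPC. The changes were -0.97 (SE 0.10, adjusted p = 0.0001, limma) in wild-type and -1.49 (SE 0.10, adjusted p = 1.4e-05, limma) in knockout cells. The difference of these changes, -0.52, was not called as deposited (adjusted p = 0.053, limma). It was called with median-ratio scaling (adjusted p = 0.0421, limma), after quantile normalization (0.0486) and with scaling to the sum (0.0338), and without wild-type NPC replicate 1 or knockout ESC replicate 1. In the other 6 fits that left out 1 library it was not called (adjusted p up to 0.14). Cox7b was at 177 and 189.6 FPKM in wild-type ESC and 85.8 and 86.4 in wild-type NPC, and at 162 and 184 in knockout ESC and 82.7 and 90.3 in knockout NPC. Its changes of -1.08 and -0.99 were alike in the 2 genotypes, with a difference of 0.09 (SE 0.12). Cox4i1, Cox6a1, Cox6b1, Cox6c and Cox8a moved less than Cox5a and Cox7b. Cox4i1 changed by -0.25 in both genotypes and was not called as deposited, but was called lower in both with median-ratio scaling (adjusted p = 0.015 and 0.0084, limma). Cox6a1 changed by -0.25 and -0.58, Cox6b1 by -0.47 and -0.56, Cox6c by -0.42 and -0.69 and Cox8a by -0.26 and -0.47, in wild-type and knockout cells. Of these, Cox6b1 and Cox6c fell in wild-type cells and all 4 fell in knockout cells, and after quantile normalization only Cox6c in knockout cells was still called among these 4 genes. The call for Cox8a in knockout cells was also lost with scaling to the sum (adjusted p = 0.0829, limma) and without knockout ESC replicate 2 or knockout NPC replicate 1 (adjusted p up to 0.0618). Ndufa4 changed by -0.19 and -0.27, but by 0.19 and 0.06 after quantile normalization, and its fall in wild-type cells was lost without either wild-type ESC library, wild-type NPC replicate 2 or either knockout NPC library (adjusted p up to 0.139).

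Of the genes that rose, 5 of 9 in wild-type and 3 of 8 in knockout cells were subunits of complex I, all but Ndufs7 accessory, and complex I makes up 35 of the 78 tested genes. Ndufb11 was at 56.9 and 64.6 FPKM in wild-type ESC, 93.4 and 93.1 in wild-type NPC, 65.9 and 66.1 in knockout ESC, and 104 and 109.6 in knockout NPC. Its changes were 0.61 (SE 0.07, adjusted p = 0.00021, limma) and 0.69 (SE 0.07, adjusted p = 0.00012, limma). Its locus overlaps that of Rbm10 and it has a near-copy elsewhere in the genome. Ndufa2 was at 44.0 and 51.8 FPKM in wild-type ESC, 67.9 and 63.4 in wild-type NPC, 48.4 and 52.3 in knockout ESC, and 76.4 and 79.2 in knockout NPC, with changes of 0.45 and 0.62. For both genes all 4 NPC libraries were above all 4 ESC libraries. Ndufa3 rose in wild-type cells, from 131 and 143 FPKM to 182 and 223, a change of 0.56 (SE 0.13, adjusted p = 0.0052, limma). Ndufa6 rose there from 84.9 and 94.1 FPKM to 124 and 129, a change of 0.49 (SE 0.08, adjusted p = 0.0013, limma). In knockout cells they changed by 0.31 and 0.12 and were not called as deposited, but both were called higher after quantile normalization and with scaling to the sum. Atp5s, which was at 0.883 to 1.81 FPKM in ESC and at 3.08 to 4.43 in NPC, rose by 0.86 in wild-type and 1.25 in knockout cells, the first not called after quantile normalization.

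The largest change was that of a Cox7a gene. Cox7a1 (mm9 chr7:30969190-30971049) encodes the form of this complex IV subunit known from heart and skeletal muscle, Cox7a2 the form found in most tissues, and Cox7a2l (chr17:83901257-83913673) a related protein that helps complexes III and IV to join into supercomplexes. Cox7a1 was at 28.3 and 27.9 FPKM in wild-type ESC, 2.48 and 0.676 in wild-type NPC, 45.9 and 35.4 in knockout ESC, and 1.06 and 1.49 in knockout NPC, on 1 to 78 implied fragments per library. Every ESC library was far above every NPC library. The changes were -3.59 (SE 0.32, adjusted p = 4.2e-05, limma) in wild-type and -4.19 (SE 0.32, adjusted p = 2.2e-05, limma) in knockout cells, and they were called under all 17 alternative settings. Of 8 heart and striated muscle markers only Myl7 reached 1 FPKM in an ESC library, and Tnnt2 and Actc1 were listed at 0 in each. Myl7, an atrial myosin light chain, was at 17.7 and 18.8 FPKM in wild-type ESC and 13.99 and 18.5 in knockout ESC. In knockout NPC it was at 2.45 and 1.46 FPKM, and wild-type NPC had it listed at 0 in each library, so it was lower in NPC as Cox7a1 was. The 8 markers together summed to 15.8 to 20.3 FPKM in the 4 ESC libraries, 1.69 and 2.04 in wild-type NPC and 12.6 and 16.9 in knockout NPC. Their part in the change of Cox7a1 was not tested.

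Cox7a2 was at 80.2 and 89.6 FPKM in wild-type ESC, 64.2 and 81.4 in wild-type NPC, 93.0 and 118 in knockout ESC, and 71.4 and 76.0 in knockout NPC. Its change of -0.23 in wild-type cells was not called (adjusted p = 0.2, limma), and its fall of -0.50 in knockout cells (adjusted p = 0.017, limma) was lost after quantile normalization (adjusted p = 0.215), with scaling to the sum (0.0954), and without knockout ESC replicate 2 or knockout NPC replicate 1 (up to 0.104). Cox7a1 thus made up 26.1% and 23.8% of the sum of Cox7a1 and Cox7a2 in wild-type ESC and 33.0% and 23.1% in knockout ESC, but 3.72% and 0.825% in wild-type NPC and 1.47% and 1.92% in knockout NPC. Cox7a2l moved the other way. It was at 83.7 and 100.0 FPKM in wild-type ESC, 162 and 172 in wild-type NPC, 101 and 120.2 in knockout ESC, and 182 and 171 in knockout NPC. Its rises of 0.86 (SE 0.11, adjusted p = 0.00031, limma) and 0.67 (SE 0.11, adjusted p = 0.0013, limma) were called under all 4 scalings. The other pairs of forms showed no exchange of that size. Cox6b2, known from testis, made up 9.28% to 11.5% of the sum with Cox6b1 in the 4 ESC libraries. It made up 11.7% to 14.8% in the 4 NPC libraries, so its share was higher in every NPC library than in every ESC library. Cox4i2, a form of lung and of low oxygen, made up at most 0.282% of the sum with Cox4i1. Cox6b2 itself ranged from 34.4 to 55.9 FPKM with overlapping groups and was not called in any of the 5 comparisons.

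The c subunit of complex V, which forms the rotating ring in the membrane, is encoded by Atp5g1 (mm9 chr11:95934107-95937008), Atp5g2 (chr15:102493299-102501478) and Atp5g3 (chr2:73746504-73749383), whose mature proteins are known to be the same while their mitochondrial targeting sequences differ. Atp5g1 was at 230.0 and 251 FPKM in wild-type ESC, 83.8 and 84.2 in wild-type NPC, 231 and 261 in knockout ESC, and 125 and 117 in knockout NPC. Atp5g2 was at 204 and 233 FPKM in wild-type ESC, 298 and 318 in wild-type NPC, 241 and 280.0 in knockout ESC, and 299 and 312 in knockout NPC. Atp5g3 was at 340.0 and 382 FPKM in wild-type ESC, 248 and 253 in wild-type NPC, 376 and 422 in knockout ESC, and 244 and 263 in knockout NPC. Atp5g1 and Atp5g3 were thus lower in NPC and Atp5g2 was higher, with no overlap of the stages in either genotype.

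Atp5g1 fell by 1.51 on the log2 scale in wild-type cells (SE 0.08, adjusted p = 4e-06, limma) and by 1.02 in knockout cells (SE 0.08, adjusted p = 2.8e-05, limma). Atp5g2 rose by 0.50 in wild-type cells (SE 0.10, adjusted p = 0.0028, limma), and its change of 0.24 in knockout cells was not called (adjusted p = 0.065, limma). It was called there with scaling to the sum, after quantile normalization and without knockout ESC replicate 2 (adjusted p = 0.028). Atp5g3 changed by -0.52 and -0.65, of which the first was not called after quantile normalization (adjusted p = 0.15, limma). As a share of the 3 genes' summed FPKM, Atp5g1 went from 29.7% and 29.0% in wild-type ESC to 13.3% and 12.8% in wild-type NPC, and Atp5g2 from 26.3% and 26.9% to 47.3% and 48.5%. In knockout cells Atp5g1 went from 27.3% and 27.1% to 18.7% and 16.9%, and Atp5g2 from 28.4% and 29.1% to 44.8% and 45.1%. The sum of the 3 was 774 and 866 FPKM in wild-type ESC and 629 and 656 in wild-type NPC. A factor applied to a whole library leaves such shares as they are. Atp5g1 and Atp5g2 have near-copies in the genome, for which no values were used here.

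**Figure D4:**
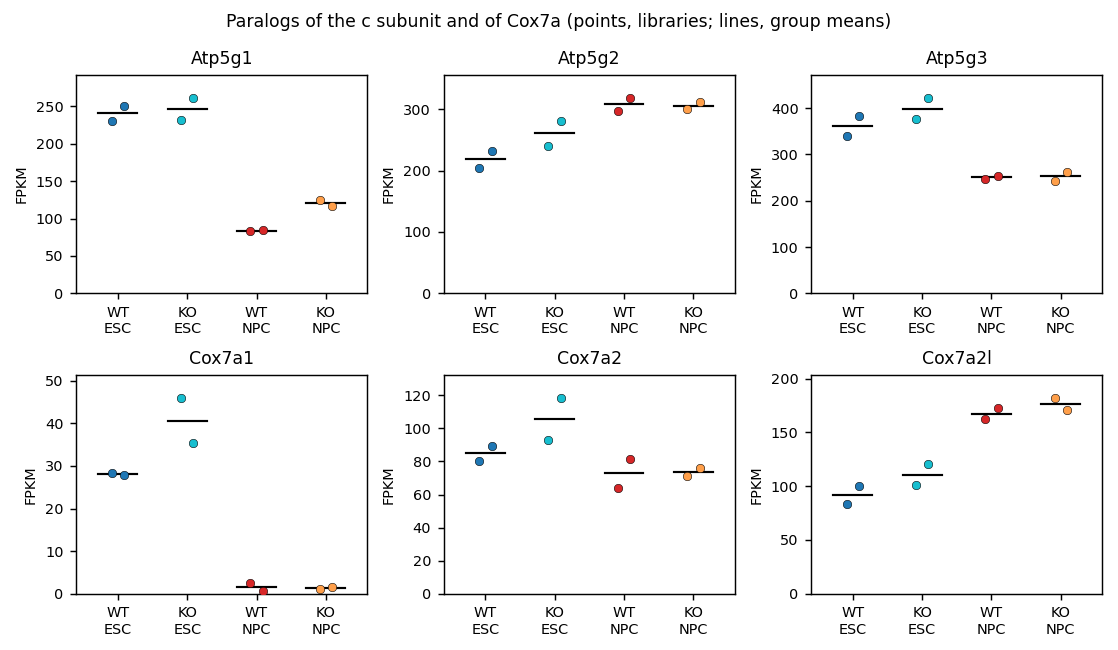
FPKM of the 3 c subunit genes (top) and the 3 Cox7a genes (bottom) in each library, with points for libraries, lines for group means, and axes that start at 0. Atp5g1 and Cox7a1 are lower in NPC, Atp5g2 and Cox7a2l are higher, and Atp5g1 lies higher in knockout than in wild-type NPC.

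The promoters of these forms are shown because they moved in opposite directions within a family, together with that of Ndufs6, the complex I gene with the largest fall. RefSeq (GRCm38.p6) had a promoter entry, 250 bases before to 50 after the start, for 69 of the 84 genes. The 150 bases just before the start are printed 5′ to 3′ on the gene's strand, and capitals mark matches on either strand to motifs of factors known to act on mitochondrial genes: NRF1 (GCGCN followed directly by TGCGC), the ETS family with GABPA (CCGGAAGT), YY1 (AANA followed directly by TGGCGG) and the oestrogen-related receptors (ERR, TCAAGGTCA).
Atp5g1 (chr11:96075632-96075781, minus strand): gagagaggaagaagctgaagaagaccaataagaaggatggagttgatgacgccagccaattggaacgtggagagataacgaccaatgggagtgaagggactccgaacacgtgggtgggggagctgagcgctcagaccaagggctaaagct
Atp5g2 (chr15:102671048-102671197, minus strand): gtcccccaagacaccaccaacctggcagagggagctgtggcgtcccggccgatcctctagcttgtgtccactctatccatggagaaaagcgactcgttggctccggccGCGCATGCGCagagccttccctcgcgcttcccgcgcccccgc
Atp5g3 (chr2:73911327-73911476, minus strand): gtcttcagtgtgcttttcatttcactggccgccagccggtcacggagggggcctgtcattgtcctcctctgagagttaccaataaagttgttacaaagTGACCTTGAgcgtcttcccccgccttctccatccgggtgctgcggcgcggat
Cox7a1 (chr7:30184021-30184170, plus strand): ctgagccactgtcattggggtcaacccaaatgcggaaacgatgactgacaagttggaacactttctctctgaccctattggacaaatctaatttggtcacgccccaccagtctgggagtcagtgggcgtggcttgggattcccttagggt
Cox7a2l (chr17:83514334-83514483, minus strand): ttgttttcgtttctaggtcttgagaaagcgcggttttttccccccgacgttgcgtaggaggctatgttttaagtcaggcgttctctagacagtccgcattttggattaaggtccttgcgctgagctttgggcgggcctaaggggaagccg
Ndufs6 (chr13:73328483-73328632, minus strand): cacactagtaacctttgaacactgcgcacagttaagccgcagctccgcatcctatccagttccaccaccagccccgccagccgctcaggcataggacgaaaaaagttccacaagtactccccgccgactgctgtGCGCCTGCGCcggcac

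In the 150 bases printed, Atp5g2 and Ndufs6 each held 1 NRF1 match and Atp5g3 held 1 ERR match on the other strand. Atp5g1, Cox7a1 and Cox7a2l held none of the 4 motifs, which says only that these letters are not there. The whole 300-base window also held an NRF1 match for Atp5g3 and a YY1 match for Ndufs6. Both a gene that rose (Atp5g2) and one that fell (Ndufs6) held the NRF1 letters. Over the whole 300-base window, NRF1 matches were found in 17 of the 69 genes (24.6%), against 5.19% of 27025 genes with a promoter entry. Among tested genes alone the shares were 24.2% of 66 against 11.5% of 9909. YY1 matches were found in 10.1% of the 69 genes against 1.59% of all, and in 10.6% against 3.77% among tested genes. ERR matches were found in 2.9% against 0.466%, and in 3.03% against 0.343% among tested genes. For the ETS motif the order depended on the background: 7.25% of the 69 genes against 4.31% of all, but 7.58% against 8.84% among tested genes. The same held for the GC box (GGGCGG), a general promoter motif, which was in 40.6% of the 69 genes against 38.2% of all, but in 40.9% against 69.4% among tested genes. The CCAAT box (CCAAT) was in 44.9% against 41.1%, and in 45.5% against 43.5% among tested genes. These are counts of letters and not of binding sites, and no test was made of them.

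The next question was what the loss of Wdr68 changed in ESC. None of the 78 genes passed limma in either direction, where 0.248% of all genes did. At an unadjusted p under 0.05, 12 genes were higher and 1 was lower, 16.7% of the 78 against 12.7% of all genes. The median difference was 0.10 beside -0.01 over all genes, and 61 of the 78 differences were positive. The 2 groups did not overlap for 36 genes, of which 29 were higher in the knockout (19.5% of all genes) and 7 lower (24.7% of all genes). By complex the medians were 0.09, 0.07, 0.07, 0.21 and 0.08 from complex I to complex V. The smallest adjusted p belonged to Ndufb9, a complex I accessory subunit named here for that reason after its values were seen, with a difference of 0.36 (SE 0.08, adjusted p = 0.2, limma).

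That shift was of the size of the difference between libraries of one group. In knockout ESC, replicate 2 was higher than replicate 1 in 67 of the 78 genes, with a median of 0.16, and in wild-type ESC in 63, with a median of 0.10. With scaling to the sum without small RNA genes the median was 0.03, beside -0.06 over all genes.

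In NPC, loss of Wdr68 went with 9 of the 78 genes higher and 1 lower, where 14.7% and 12.7% of all genes passed (27.4% in all). The median difference was 0.07 beside 0.05 over all genes. The 9 higher genes were Cox7c, Atp5g1, Uqcr10, Ndufa8, Atp5h, Ndufa11, Ndufs7, Atp5o and Sdhd, and the lower one was Ndufb4. They came from all 5 complexes: 3 from complex I, 1 each from complexes II, III and IV and 3 from complex V, beside the 1 fall in complex I. The share of the 78 that passed was 12.8%. Of these 10, 5 higher and 1 lower were called under all 4 scalings, against 11.2% and 11.1% of all genes. The count of higher genes was 5 with median-ratio scaling (1514 of all 13318 genes) and 5 in a fit of the NPC libraries alone (1263 of all 13318 genes). Leaving out any single NPC library lowered the count of higher genes among the 78, and it did so over all 13318 genes too. The median difference of the 78 then ranged from 0.03 to 0.12, beside 0.04 to 0.05 over all genes. The groups did not overlap for 38 of the 78 genes, with 29 higher in the knockout (36.6% of all genes) and 9 lower (27% of all genes).

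Cox7c (mm9 chr13:86184403-86186400), a small subunit of complex IV, had the largest difference. It was at 246 and 281 FPKM in wild-type NPC and at 427 and 414 in knockout NPC, and at 283 and 301 in wild-type ESC and 308 and 364 in knockout ESC. Both knockout NPC libraries were above the other 6 libraries. On differentiation of knockout cells it rose by 0.33 (adjusted p = 0.021, limma), a call lost with median-ratio scaling (adjusted p = 0.228) and without knockout ESC replicate 1 or either knockout NPC library (up to 0.116). The difference in NPC was 0.68 (SE 0.10, adjusted p = 0.003, limma), and it was called in all 8 fits that left out 1 library. Gm10012, a near-copy of Cox7c that the tables list apart, was at 165 and 171 FPKM in wild-type NPC and at 320.1 and 258 in knockout NPC, a difference of 0.77 (SE 0.12, adjusted p = 0.0041, limma). The sum of both entries was 411 and 452 FPKM in wild-type NPC and 747 and 673 in knockout NPC, so it differed in the same direction, and how the reads were split between them cannot be told.

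Atp5g1 was at 83.8 and 84.2 FPKM in wild-type NPC against 125 and 117 in knockout NPC, a difference of 0.52 (SE 0.08, adjusted p = 0.0035, limma), which was also called in all 8 fits that left out 1 library. In ESC the genotypes overlapped, with a difference of 0.03 (SE 0.08, adjusted p = 0.93, limma). The test of the difference between the knockout effects in NPC and ESC gave 0.49 (SE 0.11, adjusted p = 0.029, limma), and Atp5g1 was the only gene of the 78 that passed it, where 16.8% of all genes did (8.41% with a higher and 8.39% with a lower effect in NPC). At an unadjusted p under 0.05, 5 genes had a higher and 4 a lower effect in NPC, 11.5% of the 78 against 31.5% of all genes. The call for Atp5g1 was kept under all 4 scalings, as 6.45% of all genes were with a higher and 6.8% with a lower effect, but in only 2 of the 8 fits that left out 1 library, namely without wild-type ESC replicate 1 and without knockout ESC replicate 2. The adjusted p over those 8 fits ranged from 0.0317 to 0.0979.

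Uqcr10, a small accessory subunit of complex III, was at 209 and 205 FPKM in wild-type NPC and at 298 and 284 in knockout NPC, a difference of 0.49 (SE 0.11, adjusted p = 0.019, limma). Atp5h, a subunit of the stalk that holds the catalytic head of complex V in place, was at 289.6 and 286 FPKM in wild-type NPC and at 424 and 368 in knockout NPC, a difference of 0.46 (SE 0.10, adjusted p = 0.013, limma). Both genes lay higher in each knockout NPC library than in each wild-type one. Leaving out any single NPC library ended the call for Uqcr10 (adjusted p up to 0.101), and that for Atp5h ended without wild-type NPC replicate 1, wild-type NPC replicate 2 or knockout NPC replicate 1 (up to 0.0774). Atp5h has near-copies in the genome.

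Ndufa8, an accessory subunit of complex I in the space between the membranes, was at 47.4 and 44.7 FPKM in wild-type NPC and 71.9 and 58.0 in knockout NPC, a difference of 0.48 (SE 0.13, adjusted p = 0.03, limma). Ndufb4, an accessory subunit of the membrane arm, was at 185 and 199 FPKM in wild-type NPC and at 154 and 147 in knockout NPC, a difference of -0.35 (SE 0.10, adjusted p = 0.042, limma). Neither overlapped between genotypes, but both calls were close to the threshold. That for Ndufa8 was lost without either wild-type NPC library, either knockout ESC library or knockout NPC replicate 1 (adjusted p up to 0.15), and that for Ndufb4 without either wild-type ESC library or any 1 NPC library (up to 0.184).

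The other 4 higher genes had smaller differences. Ndufa11 and Ndufs7, of complex I, differed by 0.33 and 0.32, Atp5o, the stalk subunit known as OSCP, by 0.27, and Sdhd, a membrane anchor of complex II, by 0.25, with adjusted p from 0.037 to 0.048 by limma. A transcript of Donson matches at least 50% of the Atp5o transcript at 95% identity or more. None of the 4 was called under all 4 scalings, and of the 8 fits that left out 1 library, the call was kept in 2 for Ndufa11, 3 for Ndufs7, 2 for Atp5o and 1 for Sdhd.

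**Figure D5:**
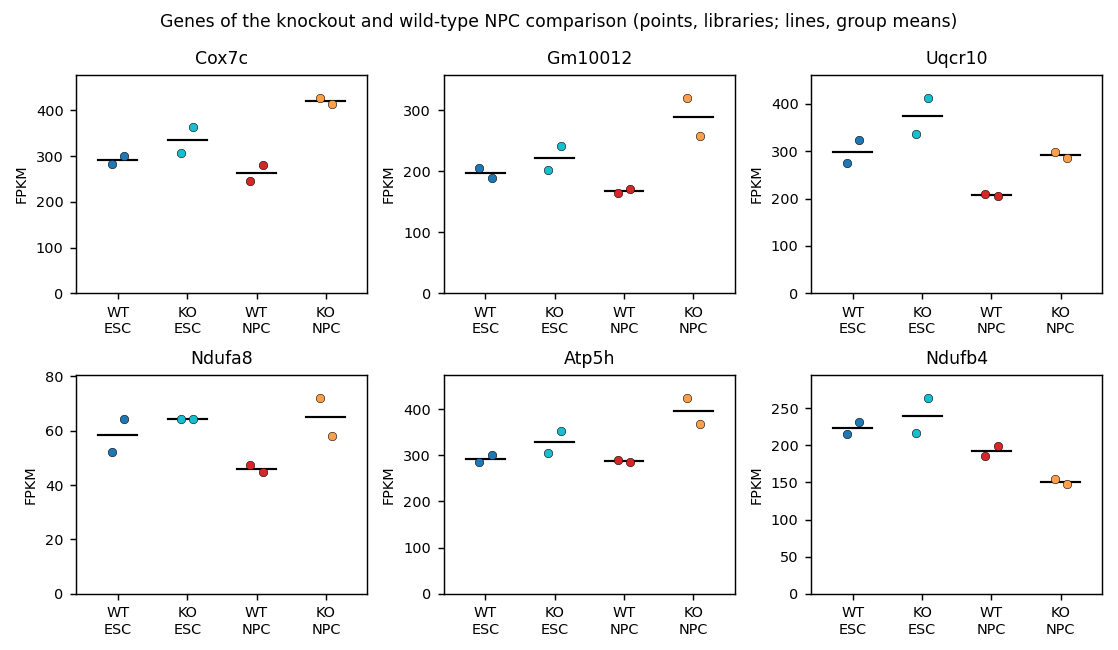
FPKM in each library of 5 of the genes with a difference between knockout and wild-type NPC and of Gm10012, the near-copy of Cox7c (Atp5g1 is in the plot of the c subunit genes); points are libraries, lines are group means, and axes start at 0. Cox7c and Gm10012 are highest in knockout NPC, while Ndufb4 is lowest there.

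The catalytic and core subunits that fell on differentiation were not called between the genotypes in NPC. The differences were 0.00 for Atp5b, 0.13 for Atp5a1, 0.12 for Ndufv1, 0.07 for Ndufs1, 0.20 for Sdha, 0.07 for Uqcrc1 and -0.28 for Cox5a, with SE of 0.05 to 0.10. Cox5a was called lower in the knockout after quantile normalization (adjusted p = 0.04, limma) and with scaling to the sum (adjusted p = 0.033, limma). Between these same 2 groups the neural progenitor, neuron, endothelium and blood, and heart and striated muscle markers differed as given above. The 5 extraembryonic endoderm markers summed to 11.1 and 13.96 FPKM in wild-type NPC and to 45.1 and 54.5 in knockout NPC, and the 6 feeder fibroblast markers to 43.5 and 47.3 against 30.1 and 33.4. The part of these cell types in the differences was not tested.

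Other genes of the pathway, in lists chosen with earlier results of these data known, were set beside the 84. Of 5 tested subunits and carriers outside the symbol pattern, 3 fell in both genotypes (31.1% of all genes in wild-type and 28.8% in knockout cells) and none rose as deposited. In wild-type cells 2 rose and 2 fell after quantile normalization (4578 and 4735 of all 13318 genes) and with scaling to the sum (6329 and 3387). The 3 that fell as deposited were Cyc1, the cytochrome c1 of complex III, Cycs, the somatic cytochrome c, and Usmg5, a complex V subunit. Cyc1 had a mean of 118 FPKM in wild-type ESC and 68.5 in wild-type NPC, a change of -0.77, and changed by -0.71 in knockout cells. Cycs changed by -0.54 and -0.76. Usmg5 changed by -0.30 and -0.50, but by 0.07 in wild-type cells after quantile normalization, and its call there was lost with scaling to the sum and without any 1 of the 4 wild-type libraries.

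Of 45 tested assembly factors, 8 rose and 14 fell in wild-type cells (41.6% and 31.1% of all genes), and 11 rose and 13 fell in knockout cells (41.6% and 28.8% of all genes). With scaling to the sum, 14 rose and 6 fell in knockout cells, against 6679 and 2888 of all 13318 genes. Cox17, a copper chaperone for complex IV, had a mean of 147 FPKM in wild-type ESC and 57.7 in wild-type NPC, a change of -1.33 (SE 0.13), and changed by -2.01 (SE 0.13) in knockout cells. Tmem70, a factor for complex V, rose by 1.23 and 1.34. Ecsit, a complex I assembly factor, changed by -1.14 and -1.13, Lrpprc, which stabilises mitochondrial mRNA, by -1.15 in wild-type cells, and Sdhaf1, a factor for complex II, by 0.90 in knockout cells. In NPC the knockout had 8 assembly factors higher and 2 lower, against 14.7% and 12.7% of all genes. The 4 with the largest differences act on complex IV, as do many of the factors in this list: Cox10, an enzyme of haem a synthesis (0.64), Coa4 (0.55), Cox18 (0.54) and Sco1 (0.51). Of these calls, that for Cox10 alone held in all 8 fits that left out 1 library. The other 3 were each lost without knockout NPC replicate 2 and without at least 1 wild-type NPC library, and those for Cox18 and Sco1 also without knockout NPC replicate 1.

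Of 17 genes of the tricarboxylic acid cycle and pyruvate dehydrogenase, 1 rose and 12 fell in wild-type cells (41.6% and 31.1% of all genes) and 2 rose and 11 fell in knockout cells (41.6% and 28.8% of all genes). Pdha1, the pyruvate dehydrogenase subunit that is controlled by phosphorylation, had a mean of 125 FPKM in wild-type ESC and 51.2 in wild-type NPC, with changes of -1.27 and -1.38. Idh3a, of the NAD-linked isocitrate dehydrogenase, changed by -1.19 and -1.41 and Pdhb by -0.72 and -0.61, while Suclg2 changed by -0.60 in wild-type and Mdh2 by -0.72 in knockout cells. More genes of this list fell than rose under each of the 4 scalings. In NPC, 1 gene was higher and 1 lower (14.7% and 12.7% of all genes): Suclg2 was higher in the knockout by 0.49, and Pdha1 was called lower by a difference of -0.19 (adjusted p = 0.046, limma), a call lost in each of the 8 fits without 1 library.

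Of 77 mitochondrial ribosomal protein genes, whose products translate the subunits encoded in mitochondrial DNA, 6 rose and 41 fell in wild-type cells (41.6% and 31.1% of all genes) and 7 rose and 45 fell in knockout cells (41.6% and 28.8% of all genes). More fell than rose under each of the 4 scalings. After quantile normalization 11 rose and 34 fell in wild-type cells, against 4578 and 4735 of all 13318 genes. In knockout cells 9 rose and 33 fell, against 4490 and 4396 of all genes. Mrps18b changed by -2.11 and -1.96, Mrps12 by -1.43 and -1.36, Mrpl15 by -1.54 and Mrpl42 by -1.14 in wild-type cells, and Mrpl40 by -1.39 and Mrpl23 by 1.27 in knockout cells. In NPC, 6 were higher and 1 was lower in the knockout, against 14.7% and 12.7% of all genes: Mrps7 differed by 0.63, Mrpl48 by 0.37, Mrpl12 by 0.36 and Mrpl34 by -0.49. The call for Mrpl48 was lost without either wild-type ESC library, wild-type NPC replicate 2 or either knockout NPC library, and that for Mrpl12 without wild-type NPC replicate 1 or any 1 knockout library.

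Of 18 tested regulators of mitochondrial genes, 3 rose and 11 fell in wild-type cells (41.6% and 31.1% of all genes) and 2 rose and 7 fell in knockout cells (41.6% and 28.8% of all genes), and more fell than rose under each of the 4 scalings. Esrrb, a receptor of the ERR family that is also a pluripotency factor, had a mean of 121 FPKM in wild-type ESC and 0.648 in wild-type NPC, with changes of -6.21 and -6.77. Pprc1, a coactivator of the PGC-1 family, changed by -1.53 and -1.23, Gabpa, the ETS factor named above, by -1.17 and -0.94, and Polg, the mitochondrial DNA polymerase, by -0.97 in knockout cells. Esrrg, another ERR receptor, was listed at 0 in ESC and had a mean of 1.69 FPKM in wild-type and 1.61 in knockout NPC. The Gabpa locus overlaps that of Atp5j. In NPC, 1 gene was higher and 2 were lower in the knockout (14.7% and 12.7% of all genes). Esrra was lower, with means of 3.15 against 5.65 FPKM and a difference of -0.67 (SE 0.15, adjusted p = 0.016, limma), a call lost without wild-type NPC replicate 2 or either knockout NPC library. Esrrb differed by -0.52, with both means below 1 FPKM, and Gabpa by 0.23, a call lost in each of the 8 fits without 1 library. No gene of these 5 lists was called between the genotypes in ESC.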

How the data were processed

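Poly(A) RNA of 8 libraries was measured by directional RNA sequencing. Per the submitters' processing notes, TopHat2 2.1.1, Cufflinks 2.2.1 and the mouse build mm9 were used. The files deposited by the authors hold FPKM per gene for each library with a 95% confidence interval, and no counts. The fragments behind a value were computed from the upper bound of that interval. In low genes, 67.6% to 72.5% of these came within 0.05 of a whole number per library, against 10% by chance. From 25.5% to 41.4% of each library's FPKM sum came from small RNA genes, so scaling matters. Reads in copies of a gene may have been split: 13 of the 84 genes had a transcript of another gene with at least 95% identity over at least 50% of the length of their shortest principal transcript, and 13 overlap another listed gene.

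Entries of 1 symbol were summed, and 12 symbols with a failed estimate were left out. The values log2(FPKM + 1), which understate changes of low genes, were fitted in R 4.3.3 by limma 3.58.1 (1 mean per group, 4 residual degrees of freedom, trend of variance with level), after a check on simulated data. Tests were two-sided, adjusted by Benjamini-Hochberg over 13318 genes in each of 5 contrasts. The text names, per contrast, up to 5 rises and 5 falls with mean FPKM of at least 5 and groups that did not overlap, 29 core subunits and tissue forms in every case, up to 4 called genes per list, and Dcaf7. Where others are named, they were chosen after their values were seen. The members and lists were chosen with earlier results of these data known. Alternatives were another pseudocount, 2 other filters, 3 other scalings, the highest entry per symbol, a fit of only the groups compared, a replicate block and leaving out each library. GRCm38 served for names, transcript copies and promoters only.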

Additional observations from a re-analysis of the deposited data

Results flagged for a closer look

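For Atp5g1, the knockout effect in NPC differed from that in ESC by 0.49 on the log2(FPKM + 1) scale in a test of the difference itself (adjusted p = 0.029, limma), since the gene was higher in both knockout NPC libraries than in both wild-type ones while the ESC genotypes overlapped. The call was kept in 2 of the 8 fits that left out 1 library. Among the other genes of the pathway that were set beside the oxidative phosphorylation genes, the same test flagged 5. The effect in NPC was higher than in ESC for Cox10 (0.58, adjusted p = 0.024, limma), with the call kept in 2 of 8 such fits. It was lower for Timmdc1, a complex I assembly factor (-0.80, adjusted p = 0.015, kept in 5 of 8), for Mrpl34 (-0.82, adjusted p = 0.0042, kept in 8 of 8), for Mrpl28 (-0.44, adjusted p = 0.041, kept in 1 of 8) and for Esrrb (-0.56, adjusted p = 0.038, kept in 1 of 8), all by limma.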

How the results depend on the processing

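The knockout and wild-type ESC comparison gave no call among the 78 genes under any of the 17 alternative settings. With 2 libraries per group and 4 residual degrees of freedom, a change that was not called may still be there. In NPC against ESC, the wild-type median of -0.19 became -0.31 with median-ratio scaling, 0.1563 after quantile normalization and 0.0041 with scaling to the sum without small RNA genes. Quantile normalization gave 27 higher and 17 lower genes there (4578 and 4735 of all 13318 genes), and scaling to the sum 17 higher (6329 of all genes). In knockout cells the median of -0.23 became -0.4131, 0.0619 and 0.0207 under the same 3 scalings. The first gave 4 higher genes (4766 of all genes) and the second 23 higher and 17 lower (4490 and 4396). The third gave 21 higher and 17 lower genes (6679 and 2888 of all genes). Without 1 library, the wild-type median ranged from -0.2573 to -0.0997, beside 0.14 to 0.16 over all genes. The knockout median ranged from -0.32 to -0.18, beside 0.17 to 0.18 over all genes, and the number of higher genes there varied too. Under quantile normalization the sign turned for Atp5h (0.3323), Ndufa4 (0.1911) and Usmg5 (0.0691) in wild-type cells, and for Uqcr10 (0.0850), Atp5a1 (0.0212), Ndufa4 (0.0555) and Atp5o (0.1873) in knockout cells. Under scaling to the sum it turned for Ndufa4 in wild-type cells (0.0042).

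In knockout against wild-type NPC, 9 higher and 1 lower gene became 5 and 2 with median-ratio scaling (1514 and 1811 of all 13318 genes). The lower count was 4 after quantile normalization (1797 of all 13318 genes), 3 with scaling to the sum (1685) and 0 without a filter (1833 of 19233). The higher count was 5 in the fit of only the groups compared (1263 of all 13318 genes). Without 1 library they ranged from 2 to 7 and from 0 to 2. For the difference between the knockout effects, 1 higher and 0 lower genes became 1 and 1 with median-ratio scaling (873 and 1184 of all 13318 genes). They became 2 and 2 after quantile normalization (1111 and 1123 of all genes), and 5 and 1 with scaling to the sum (1230 and 1046). With scaling to the sum the median of -0.02 became 0.0408. Without 1 library this median ranged from -0.1053 to 0.0679, beside 0.05 to 0.07 over all genes, and the calls varied with the library left out. The cause of these changes was not tested.

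Over all tested genes the replicate numbers showed no clear pairing: deviations of libraries with the same number correlated at -0.054 to 0.179 between groups. That check cannot exclude pairing among the 78 genes. Replicate 2 was higher than replicate 1 in 63 of them in wild-type ESC, 51 in wild-type NPC, 67 in knockout ESC and 31 in knockout NPC. With a replicate block, the counts were 9 and 1 in NPC between genotypes (1822 and 1601 of all 13318 genes). They were 9 and 29 in wild-type differentiation (5511 and 4121 of all genes) and 11 and 36 in knockout differentiation (5496 and 3813). In ESC they were 0 and 0 (10 and 5 of all genes), and 2 and 2 for the difference between the effects (993 and 1077).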
